A study of Mus musculus with 21 samples.

Results

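The glucocorticoid receptor gene Nr3c1 and 7 of its textbook target genes, Tsc22d3, Fkbp5, Per1, Ddit4, Klf9, Sgk1 and Txnip, were followed in T cells of the mouse spleen. They were taken by gene name, and all 8 were among the 12994 genes of the table. The rule itself uses no measured value, although the genes were chosen with earlier results of these data known. The study asked how an enriched environment (EE) acts on T cells. CD4+ and CD8+ T cells were sorted as CD45+, CD11b-, CD3+ cells from spleens of female C57BL6/J mice that entered EE or a standard environment (SE) at 4 weeks of age and stayed there for 4 weeks. EE was a cage of 9120 cm2 with 12 to 15 mice, running wheels and objects, and SE was a cage of 666 cm2 with 5 to 6 mice and no objects. The labels name no drug, transgene or hormone treatment for any group. There were 6 CD4 EE, 5 CD4 SE, 6 CD8 EE and 4 CD8 SE samples from 12 mice, of which 9 (6 EE and 3 SE) gave both populations. According to the sample labels the mice of one environment came from the same cage, so cage and environment cannot be told apart. Mouse numbers run separately in EE and SE.

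Glucocorticoids, mainly corticosterone in mice, are adrenal steroids released in stress and with the daily rhythm. They enter cells and bind the receptor encoded by Nr3c1, which waits in the cytoplasm in a complex with heat shock proteins, moves to the nucleus and activates or represses genes, in part through palindromic DNA elements. In T cells these hormones restrain activation and cytokine production, and Tsc22d3 and Fkbp5 are common readouts of receptor activity in lymphocytes. Most of the targets also answer to other signals, among them nutrients, the circadian clock and activation of the T cell receptor.

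The sequences upstream of the target genes were searched for the receptor's motif. RefSeq starts on GRCm38.p6 gave 15 windows of 250 bases before the start for 7 of the 8 genes, 6 of them for Sgk1 and 3 for Tsc22d3, and Nr3c1 was not in that table. Both strands were searched for the receptor's palindrome, which is the hexamer AGAACA followed by any 3 bases and the reverse complement of the hexamer, for the hexamer AGAACA alone, for the E-box CACGTG bound by clock factors, and for the cAMP response element TGACGTCA. The palindrome was found in 1 of the 15 windows, at Sgk1, against 0.00913% of all 32851 windows. That share is 3 windows, the Sgk1 window among them, so a single match stands on both sides. The hexamer was found in 4 of the 15 windows (16.1% of all windows), 3 of them at Sgk1 and 1 at Tsc22d3, which is 2 of 7 genes against 18.2% of all genes, and a palindrome also counts as a match of the hexamer. The E-box was found in 3 of the 15 (6.02% of all windows), and the cAMP response element in 0 of the 15 (1.55% of all windows). A motif in a window is a match of letters and no measure of binding, and sequence outside the 250 bases was not searched. The windows shown are the Sgk1 start with the palindrome, a Tsc22d3 start with the hexamer, the Per1 start with an E-box, and the Ddit4 start, which held no match. Capitals mark the matches, and in the Sgk1 window an E-box 246 bases before the start runs into a hexamer on the other strand.
Sgk1, chr10:21993640-21993889, plus strand, palindrome 189 bases before the start: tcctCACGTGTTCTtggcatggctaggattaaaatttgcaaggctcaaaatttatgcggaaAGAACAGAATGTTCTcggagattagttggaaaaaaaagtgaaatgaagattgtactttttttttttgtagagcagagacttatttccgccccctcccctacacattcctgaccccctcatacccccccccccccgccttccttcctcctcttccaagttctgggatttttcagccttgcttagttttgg
Tsc22d3, chrX:140600523-140600772, minus strand, hexamer 185 bases before the start: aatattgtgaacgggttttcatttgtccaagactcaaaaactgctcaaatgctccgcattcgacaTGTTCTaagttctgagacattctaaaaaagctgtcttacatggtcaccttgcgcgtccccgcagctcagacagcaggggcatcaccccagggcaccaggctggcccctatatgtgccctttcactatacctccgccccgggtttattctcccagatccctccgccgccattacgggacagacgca
Per1, chr11:69098699-69098948, plus strand, E-box 166 bases before the start: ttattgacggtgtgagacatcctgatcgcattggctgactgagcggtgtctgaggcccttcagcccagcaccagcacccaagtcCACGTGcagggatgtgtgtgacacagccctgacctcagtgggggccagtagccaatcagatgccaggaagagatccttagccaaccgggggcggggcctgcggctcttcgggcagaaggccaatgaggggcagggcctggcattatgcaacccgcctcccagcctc
Ddit4, chr10:59951771-59952020, minus strand: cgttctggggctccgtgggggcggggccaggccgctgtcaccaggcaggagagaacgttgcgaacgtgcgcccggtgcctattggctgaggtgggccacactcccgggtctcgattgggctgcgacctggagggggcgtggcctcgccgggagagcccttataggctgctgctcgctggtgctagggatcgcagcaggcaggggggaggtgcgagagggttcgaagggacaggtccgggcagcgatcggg

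Values are normalized molecule counts. A molecule is a cDNA counted once through its unique molecular identifier (UMI), and the counts of each sample were divided by a size factor. Samples held 145546 to 221454 molecules (median 182470), so that 1 molecule corresponded to a normalized count of 0.791 to 1.26. Cd4 was at 63.5 ± 13.5 (SD, n = 6) in CD4 EE and at 0.161 ± 0.394 (SD, n = 6) in CD8 EE samples, and Cd8a at 0.460 ± 0.771 (SD, n = 6) and 98.7 ± 16.1 (SD, n = 6), so the populations matched their labels. SE samples did likewise, with Cd4 at 52.2 ± 6.79 (SD, n = 5) in CD4 and 0.694 ± 0.464 (SD, n = 4) in CD8 samples. Cd8a was at 1.17 ± 1.31 (SD, n = 5) in CD4 SE and 97.9 ± 14.0 (SD, n = 4) in CD8 SE samples. Cd8b1 was above 0 in every CD4 sample, where EE mice had 2.54 ± 0.853 (SD, n = 6) while SE mice had 4.92 ± 2.84 (SD, n = 5), against 204 ± 17.9 (SD, n = 4) in CD8 SE samples. RNA of 8 B cell markers was uneven, with a summed normalized count of 3.09 to 63.1 in CD4 and 0.931 to 17.2 in CD8 samples, and 4 of the 8 were at 0 in every CD8 EE and 6 in every CD8 SE sample. Markers of myeloid cells summed to 0 in every CD8 EE sample and to 0.856 to 12.5 in the CD8 SE samples, mostly through Lyz2 (4.94 ± 4.85, SD, n = 4), and to at most 12.3 in CD4 samples, and their part in the comparison of CD8 EE with CD8 SE was not tested. Those of NK cells summed to at most 6.68, while immediate-early genes, which rise during cell handling, summed to 143 to 247. Only 3 of the 8 myeloid and 2 of the 5 NK cell markers were in the table, so their sums are a partial check. Red blood cell markers summed to 581 in CD8 EE mouse 6 and to 1033 in CD8 SE mouse 3, and to at most 26.7 in any other sample. In sorted bulk samples, fewer cells that express a gene and less RNA per cell cannot be told apart.

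Nr3c1 (ENSMUSG00000024431), the receptor itself, was present in every sample at 10 to 29 molecules. CD4 EE samples ranged from 12.3 to 24.0 (median 14.3), and CD4 SE samples were at 11.3, 16.5, 19.2, 19.6 and 22.8. CD8 EE samples ranged from 10.3 to 19.8 (median 12.3), and CD8 SE samples were at 13.2, 15.8, 18.3 and 24.8. The order of the group means was CD8 SE (18.04 ± 4.97, SD, n = 4), CD4 SE (17.9 ± 4.32, SD, n = 5), CD4 EE (16.5 ± 4.98, SD, n = 6) and CD8 EE (13.9 ± 3.80, SD, n = 6). All 4 groups overlapped, and no neighbours in that order differed beyond their spread.

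**Figure D1:**
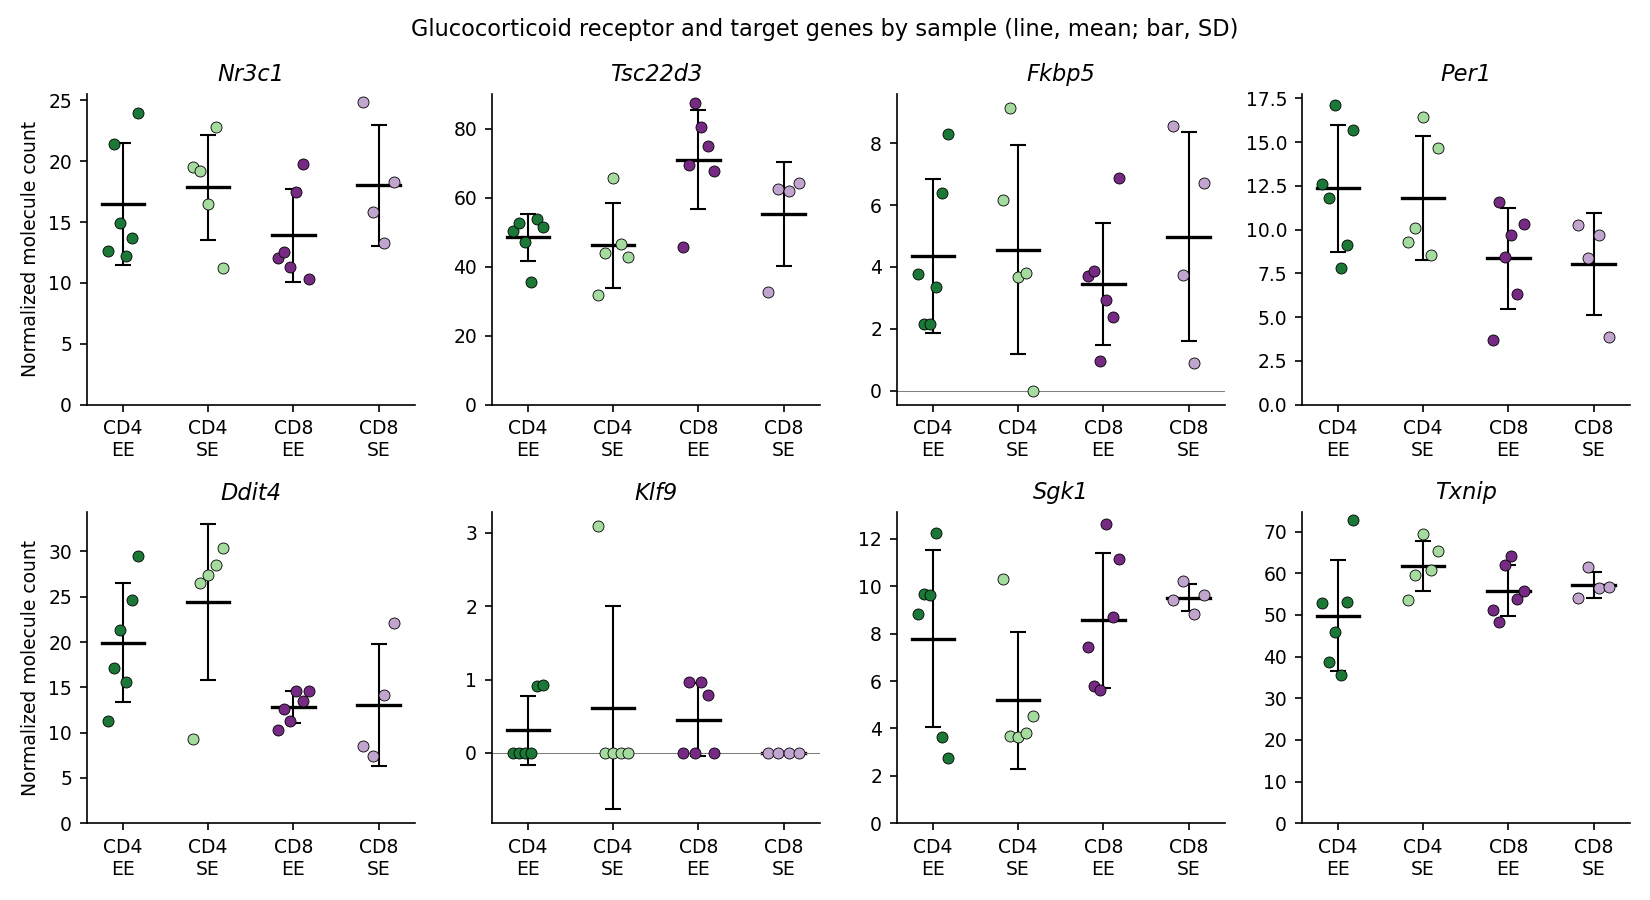
Normalized molecule count (vertical axes, linear) of the receptor gene and its 7 target genes in each of the 21 samples, by group on the horizontal axis, with the mean as a line and the SD as a bar. The EE and SE samples of a population overlap in all 8 genes, Ddit4 is higher in most CD4 than CD8 samples, and Klf9 lies at 0 in 15 samples.

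Tsc22d3 (ENSMUSG00000031431, X:140539528-140600659 on GRCm38) encodes GILZ, a leucine zipper protein that holds back inflammatory transcription in lymphocytes. CD4 EE samples ranged from 35.6 to 53.9 (median 51.0), and CD4 SE samples were at 31.9, 42.8, 43.9, 46.5 and 65.8. CD8 EE samples ranged from 45.6 to 87.4 (median 72.3), and CD8 SE samples were at 32.5, 61.8, 62.4 and 64.4. CD8 EE was thus the highest group (71.0 ± 14.4, SD, n = 6), ahead of CD8 SE (55.3 ± 15.2, SD, n = 4), CD4 EE (48.5 ± 6.74, SD, n = 6) and CD4 SE (46.2 ± 12.3, SD, n = 5). SE mouse 1 was the lowest sample in each population.

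Fkbp5 (ENSMUSG00000024222, 17:28399094-28517527) encodes a co-chaperone that lowers the receptor's affinity for hormone and is itself induced by it. It was scarce, with 0 to 10 molecules per sample. CD4 EE samples held 2 to 9 molecules (median normalized count 3.56), CD4 SE samples were at 0, 3.66, 3.80, 6.18 and 9.15, CD8 EE samples ranged from 0.940 to 6.87 (median 3.32), and CD8 SE samples were at 0.883, 3.72, 6.73 and 8.56. High and low samples occurred in all groups, and the spread within a group (SD 1.98 to 3.39) exceeded every difference between group means (3.45 to 4.98).

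Per1 (ENSMUSG00000020893, 11:69095217-69109960), a repressor of the circadian clock that hormone induces quickly, was at 7.80 to 17.1 (median 12.2) in CD4 EE and at 8.55, 9.27, 10.1, 14.6 and 16.5 in CD4 SE samples. It was at 3.72 to 11.6 (median 9.09) in CD8 EE and at 3.84, 8.38, 9.71 and 10.3 in CD8 SE samples. The means of EE and SE were close in each population, at 12.4 ± 3.61 (SD, n = 6) against 11.8 ± 3.53 (SD, n = 5) in CD4 and 8.35 ± 2.89 (SD, n = 6) against 8.05 ± 2.92 (SD, n = 4) in CD8 samples.

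Ddit4 (ENSMUSG00000020108, 10:59949669-59951834) encodes REDD1, an inhibitor of mTORC1, the kinase complex that drives growth and protein synthesis. CD4 EE samples ranged from 11.3 to 29.5 (median 19.3), and CD4 SE samples were at 9.27, 26.5, 27.4, 28.5 and 30.4. CD8 EE samples stayed between 10.2 and 14.6 (median 13.0), and CD8 SE samples were at 7.45, 8.56, 14.1 and 22.1. The order of the means was CD4 SE (24.4 ± 8.60, SD, n = 5), CD4 EE (19.9 ± 6.59, SD, n = 6), CD8 SE (13.1 ± 6.70, SD, n = 4) and CD8 EE (12.8 ± 1.77, SD, n = 6). Every CD8 EE sample lay below the CD4 EE median, and SE mouse 1 was low in both populations.

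Klf9 (ENSMUSG00000033863, 19:23141226-23168134), a Krüppel-like repressor of transcription, was nearly undetected. It had 2 molecules over the 6 CD4 EE samples, 3 over the 5 CD4 SE samples (all in SE mouse 1), 3 over the 6 CD8 EE samples and 0 over the 4 CD8 SE samples, where a count of 0 allows up to 3 molecules from counting error alone. It was the only one of the 8 genes with a mean at or under 2 and so was not among the 7 tested, and at this depth no difference between groups could be detected.

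Sgk1 (ENSMUSG00000019970, 10:21882184-21999903) encodes a kinase of ion transport and cell survival that hormone and salt induce. CD4 EE samples ranged from 2.77 to 12.3 (median 9.22), and CD4 SE samples were at 3.66, 3.66, 3.80, 4.50 and 10.3. CD8 EE samples ranged from 5.64 to 12.6 (median 8.07), and CD8 SE samples lay close together at 8.83, 9.42, 9.61 and 10.2. Of the CD4 samples, 6 lay between 2.77 and 4.50 and the other 5 between 8.82 and 12.3, and both environments held samples of either kind.

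Txnip (ENSMUSG00000038393, 3:96557957-96561883) encodes a protein that binds thioredoxin and limits glucose uptake. CD4 EE samples ranged from 35.6 to 72.9 (median 49.4), and CD4 SE samples were at 53.5, 59.5, 60.8, 65.3 and 69.5. CD8 EE samples ranged from 48.3 to 64.1 (median 54.8), and CD8 SE samples were at 54.0, 56.5, 56.7 and 61.5. In the CD4 population 5 of the 6 EE samples lay below every SE sample, and the sixth lay above them all. The antisense gene Gm15441 overlaps Txnip, and whether counting used strand is not given in the sources used here.

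In CD4+ T cells, none of the 7 genes tested passed the adjusted threshold of 0.05 between EE and SE (limma on log2(normalized count + 1), Benjamini-Hochberg adjustment over all genes), where 0.0126% of the 7939 genes tested did. The difference in Txnip was the largest relative to its error, with a log2 fold change EE minus SE of -0.34 (standard error 0.17, 95% interval -0.69 to 0.01, limma adjusted p = 0.835). For Nr3c1 the log2 fold change was -0.12 (95% interval -0.64 to 0.40), for Tsc22d3 0.09 (-0.27 to 0.46), and for Ddit4 -0.24 (-0.77 to 0.29). The scarcer genes had wider intervals, with 0.16 (-0.85 to 1.18) for Fkbp5, 0.06 (-0.54 to 0.65) for Per1 and 0.46 (-0.35 to 1.28) for Sgk1. The value for Fkbp5 is a mean of logarithms and runs against its mean counts, 4.35 in EE and 4.56 in SE samples, so it gives no direction. Leaving out 1 sample moved the Nr3c1 value to between -0.27, without SE mouse 6, and -0.027, without SE mouse 5, and the Ddit4 value to between -0.54, without SE mouse 1, and -0.10, without EE mouse 1. With intervals this wide, a missing call does not show equal levels. No member passed an unadjusted p of 0.05 either, where 5.82% of all genes did.

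In CD8+ T cells, likewise, none of the 7 genes passed, and 0.0% of the 7840 genes tested passed (0 by limma, edgeR and DESeq2, with 413 genes at an unadjusted limma p under 0.05). Tsc22d3 had the largest difference relative to its error, with a log2 fold change EE minus SE of 0.38 (standard error 0.17, 95% interval 0.04 to 0.72, limma adjusted p = 0.923). It was the 1 member under an unadjusted p of 0.05, where 5.27% of all genes were, and the exact two-sided permutation test of these 6 against 4 samples gave p = 0.162. With 1 sample left out, the difference ranged from 0.15, without SE mouse 1, to 0.50. Of the 6 EE samples, 5 lay above every SE sample. EE and SE samples overlapped in all 8 genes and both populations, where the groups did not overlap for 0.453% of genes in CD4 and 1.06% in CD8 samples. No member passed with any CD8 sample left out, those with red blood cell RNA included. Nr3c1 had a log2 fold change of -0.35 (95% interval -0.89 to 0.18), Fkbp5 of -0.31 (-1.29 to 0.67), Sgk1 of -0.19 (-0.85 to 0.47), Ddit4 of 0.08 (-0.51 to 0.67), Per1 of 0.05 (-0.67 to 0.76) and Txnip of -0.04 (-0.34 to 0.26). For Ddit4 the mean counts, 12.8 in EE and 13.1 in SE samples, run against the mean of logarithms, so no direction is given. Without SE mouse 1, the values were -0.20 for Nr3c1 and -0.0052 for Fkbp5. Without SE mouse 3, they were -0.48 and -0.79. The Sgk1 value lay between -0.30, without EE mouse 4, and -0.096, without EE mouse 3.

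**Figure D2:**
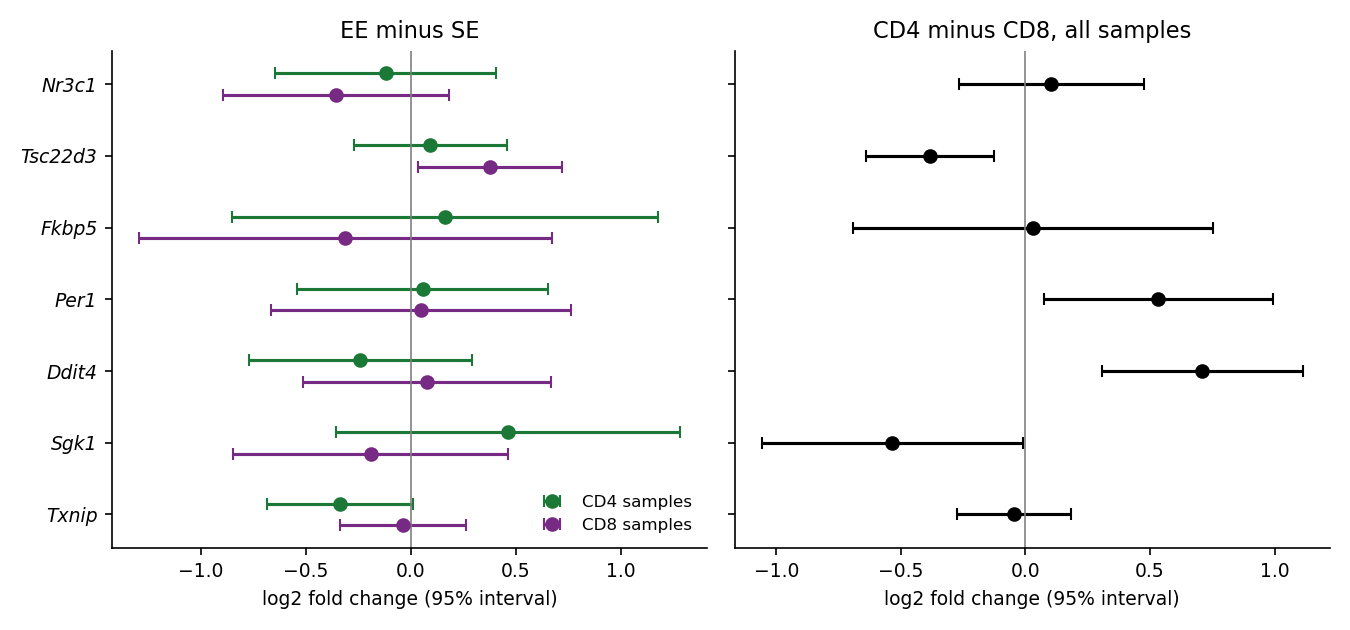
Log2 fold change (horizontal axes) of the 7 tested genes with 95% intervals from limma, for EE minus SE in CD4 (green) and CD8 (purple) samples on the left and for CD4 minus CD8 over all samples on the right. On the left only the interval of Tsc22d3 in CD8 samples leaves out 0, from 0.04 to 0.72, and on the right that of Ddit4, from 0.31 to 1.11, lies farthest from 0.

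The effect of the environment was not shown to differ between the populations. The difference between the CD4 and the CD8 log2 fold change ran from -0.32 for Ddit4 to 0.65 for Sgk1 (95% interval -0.39 to 1.70). For Ddit4 it was -0.62 without CD4 SE mouse 1 and -0.11 without CD8 SE mouse 2. No member passed an adjusted or an unadjusted threshold (4.95% of genes passed the unadjusted one), and 0.0% of the 7938 genes tested passed the adjusted one (0 by limma, edgeR and DESeq2, with 393 at an unadjusted limma p under 0.05).

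Between the populations, Ddit4 was higher in CD4 than in CD8 samples. Its log2 fold change CD4 minus CD8 was 0.71 (standard error 0.20, 95% interval 0.31 to 1.11, limma adjusted p = 0.0227), with means of 22.0 ± 7.53 (SD, n = 11) and 12.9 ± 4.09 (SD, n = 10). It was the 1 member called of 7, where 4.4% of the 7938 genes tested were called and 2.33% were called higher in CD4 samples. In the 9 mice with both populations Ddit4 was higher in the CD4 sample of all 9, which held for 1.75% of genes, and the exact two-sided sign-flip test gave p = 0.00391, the smallest it can give. A fit of those 9 pairs alone, added after seeing the data, gave 0.52 with a limma adjusted p of 0.132. Within an environment the difference was 0.55 in EE (exact permutation p = 0.0281) and 0.87 in SE (exact permutation p = 0.0952), and neither passed adjustment over all genes (limma adjusted p = 0.275 and 0.240). Both tests took the samples as unpaired, although most came from the same mice.

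The Ddit4 call lay near the threshold, and leaving out a single sample could undo it. It was kept in 16 of 21 fits that each left 1 sample out, with a difference of 0.61 to 0.86. The limma adjusted p rose to 0.0547 without CD4 EE mouse 6, 0.0505 without CD4 SE mouse 5, 0.0516 without CD4 SE mouse 6, 0.0793 without CD8 SE mouse 1 and 0.0982 without CD8 SE mouse 2. Of 12 other alternatives, fits with fewer samples or an added term included, 7 kept the call. Among the 11 CD4 samples, Ddit4 also correlated with the B cell markers before adjustment. After centring within environments, Pearson's r was 0.86 (permutation p = 0.00991, adjusted over 32 relations 0.106) and Spearman's rho 0.69 (permutation p = 0.0209, adjusted 0.225). Leaving out the 2 samples with the most extreme marker sums gave an r of 0.69. CD4 SE mouse 1 had the least B cell RNA of the CD4 samples, a sum of 3.09, and a Ddit4 count of 9.27, inside the CD8 range of 7.45 to 22.1. CD4 EE mice 1, 2, 3 and 4 also lay inside that range, at 11.3, 17.2, 21.4 and 15.6, with sums of 23.9, 33.3, 26.7 and 18.9. CD4 SE mouse 5, with a sum of 23.7, was at 28.5. With the log2 sum of these markers as a term in the fit, an alternative added after seeing the data, the Ddit4 difference between the populations was -0.07 (95% interval -0.66 to 0.52). Since that sum itself differs between CD4 and CD8 samples, the share of the Ddit4 difference that goes with B cell RNA and the share that goes with the population cannot be told apart.

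**Figure D3:**
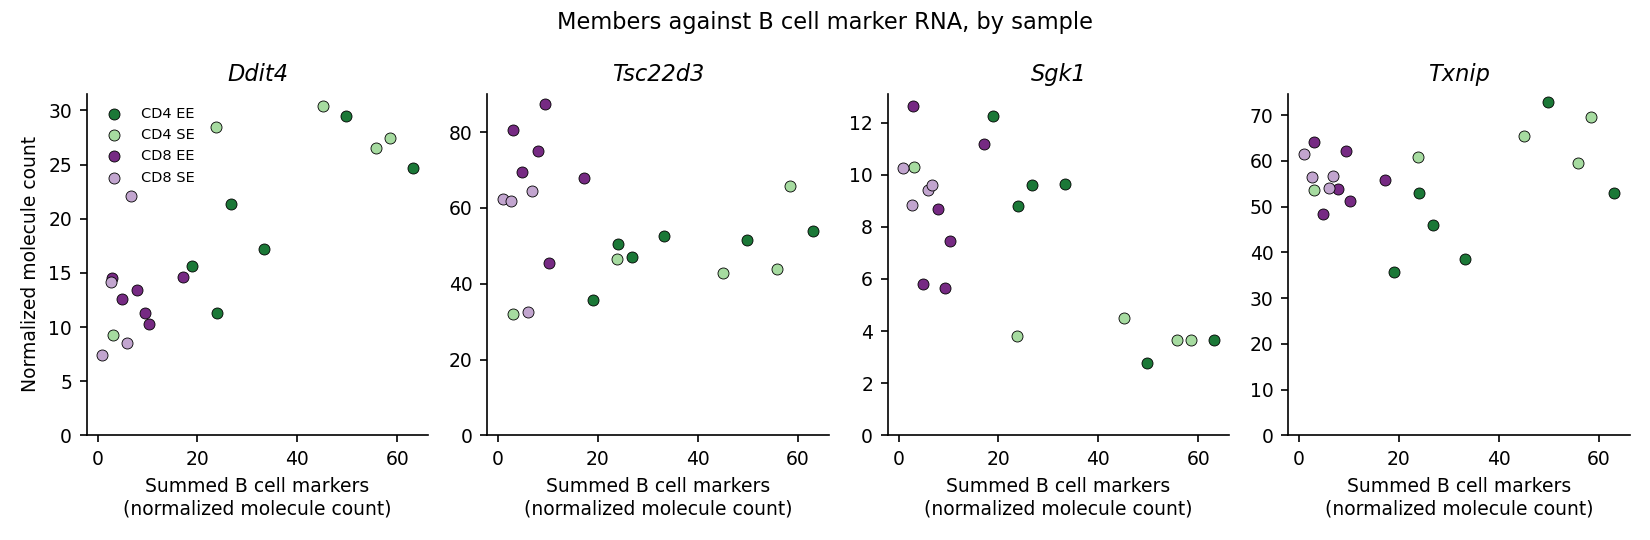
Normalized molecule count of 4 target genes (vertical axes) against the summed normalized count of 8 B cell markers (horizontal axes) in each of the 21 samples, coloured by group. In CD4 samples Ddit4 runs with B cell RNA and Sgk1 against it, neither past adjustment. CD4 SE mouse 1, with a sum of 3.09, lies among the CD8 samples for Ddit4 and Sgk1, and so do CD4 EE mice 1, 2, 3 and 4.

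Tsc22d3 leaned the other way and stood at the edge of the threshold. Its mean was 47.5 ± 9.21 (SD, n = 11) in CD4 and 64.7 ± 16.1 (SD, n = 10) in CD8 samples, a log2 fold change CD4 minus CD8 of -0.38 (standard error 0.13, 95% interval -0.64 to -0.13, limma adjusted p = 0.0794). In the 9 mice with both populations the CD8 sample was higher in 8, as for 4.55% of genes in at least 8 mice, with an exact two-sided sign-flip p of 0.0117. The paired fit of those mice passed (-0.47, limma adjusted p = 0.0133), as did edgeR (-0.40, adjusted p = 0.0490), and DESeq2 did not (-0.40, adjusted p = 0.0735). In EE samples the difference was -0.52 (limma adjusted p = 0.0377, exact permutation p = 0.0130), and in SE samples it was -0.24 (limma adjusted p = 0.817, exact permutation p = 0.381). These tests within an environment took the samples as unpaired. The fit passed without CD8 SE mouse 1 (adjusted p = 0.00952), without CD8 EE mouse 1 (0.0267) and without CD4 SE mouse 4 (0.0265). With the B cell term the difference was -0.56 (95% interval -0.96 to -0.15, limma adjusted p = 0.208).

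**Figure D4:**
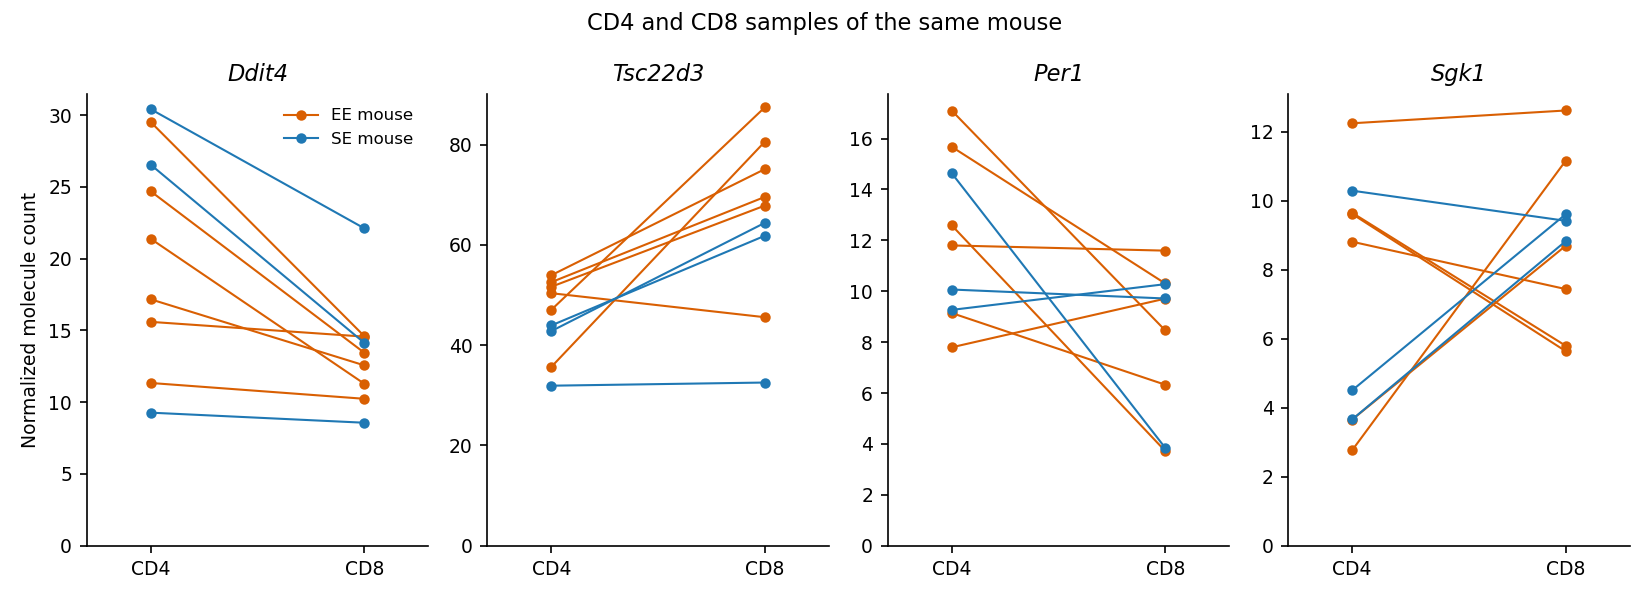
Normalized molecule count (vertical axes) of 4 target genes in the CD4 and the CD8 sample of the same mouse, with 1 line for each of 6 EE and 3 SE mice. All 9 lines fall for Ddit4, 8 of 9 rise for Tsc22d3, 7 of 9 fall for Per1, and the lines for Sgk1 go both ways.

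Per1 and Sgk1 had an unadjusted p under 0.05 between the populations, as did 14.8% of all genes, and did not pass adjustment. Per1 was at 12.1 ± 3.40 (SD, n = 11) in CD4 and 8.23 ± 2.74 (SD, n = 10) in CD8 samples (log2 fold change 0.53, 95% interval 0.07 to 0.99, limma adjusted p = 0.231), and was higher in the CD4 sample of 7 of 9 mice (exact two-sided sign-flip p = 0.0508). For Sgk1 the values were 6.61 ± 3.49 (SD, n = 11) and 8.95 ± 2.21 (SD, n = 10), a log2 fold change of -0.53 (95% interval -1.06 to -0.01, limma adjusted p = 0.321). Sgk1 was higher in the CD8 sample of only 5 of 9 mice (mean difference -0.35, exact two-sided sign-flip p = 0.227), and its difference was -0.21 in EE and -0.86 in SE samples. Sgk1 also correlated with B cell RNA among the CD4 samples before adjustment (r = -0.78, permutation p = 0.00380, adjusted over 32 relations 0.106, rho = -0.79, permutation p = 0.00331, adjusted 0.106, r = -0.76 without the 2 farthest samples), and its difference between the populations turned to 0.19 with the B cell term. Nr3c1 (0.10, 95% interval -0.27 to 0.47), Fkbp5 (0.03, -0.69 to 0.75) and Txnip (-0.04, -0.27 to 0.18) had intervals around 0, the narrowest for Txnip.

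The members were next compared with each other from sample to sample. Of 56 pairs of members correlated within a population, after centring within environments, 0 passed adjustment over the 56 and 4 had an unadjusted permutation p under 0.05, all in CD4 samples. Among these 11 samples Sgk1 ran against Txnip (r = -0.82, permutation p = 0.00278, adjusted 0.156, rho = -0.87, permutation p = 0.00175, adjusted 0.0980, r = -0.72 without the 2 farthest samples) and against Ddit4 (r = -0.81, permutation p = 0.00845, adjusted 0.237, rho = -0.83, permutation p = 0.0118, adjusted 0.330, r = -0.88 without the 2 farthest samples). Tsc22d3 ran with Txnip (r = 0.55, permutation p = 0.0324, adjusted 0.547, rho = 0.62, permutation p = 0.0342, adjusted 0.363, r = 0.56 without the 2 farthest) and against Sgk1 (r = -0.64, permutation p = 0.0390, adjusted 0.547, rho = -0.64, permutation p = 0.0349, adjusted 0.363, r = -0.58 without the 2 farthest). All 4 genes of these pairs also had a Pearson correlation with the B cell markers at an unadjusted permutation p under 0.05 in these samples. Beside Ddit4 and Sgk1, given above, Tsc22d3 had r = 0.76 (permutation p = 0.0315, adjusted over 32 relations 0.201, rho = 0.59, permutation p = 0.0764, adjusted 0.349), which was 0.47 without the 2 farthest samples. Txnip had r = 0.49 (permutation p = 0.0206, adjusted 0.165, rho = 0.59, permutation p = 0.0365, adjusted 0.233), which was 0.50 without them. The 32 relations also covered total molecules. In CD4 samples Sgk1 had r = -0.63 with these (permutation p = 0.0547, adjusted 0.250), and -0.86 without the 2 samples farthest in total molecules. For Tsc22d3, Txnip and Ddit4 r was 0.45, 0.43 and 0.48, and 0.68, 0.88 and 0.61 without the 2 farthest. Fkbp5 had r = 0.62 (permutation p = 0.0377, adjusted 0.201), and 0.50 without them. None of these relations passed adjustment, and the part of B cell RNA or of total molecules in the pair correlations was not tested.

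Hormone in the blood reaches both populations of a mouse, so the CD4 and CD8 values of the 9 mice were compared, after centring within environments. Ddit4 had r = 0.80 (exact permutation p = 0.0347 over 4320 arrangements within environments, rho = 0.78, exact p = 0.0403), above 99.1% of genes. It was 0.51 without SE mouse 1 and 0.43 without the 2 mice farthest from the median, and the p adjusted over all 7938 genes was 0.939, so it did not pass, and 0 genes did (411 had an unadjusted exact p under 0.05). In the other members r lay between -0.38 for Nr3c1 and 0.23 for Tsc22d3, where the quartiles of all genes were -0.25 and 0.31.

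The 3 genes most alike to each member with a mean above 10 were ranked by Pearson's r of the deviations from the 4 group means over the 21 samples, among 2726 genes. For Ddit4 they were Dnaja1 (0.76), an Hsp40 co-chaperone, Il2rb (0.75), a chain of the interleukin 2 receptor, and Ube2n (0.74). Txnip came with Ddx47 (0.85), Son (0.84) and Metap2 (0.72), Tsc22d3 with Tesc (0.71), Ncapd3 (0.70) and Dnajb1 (0.68), and Per1 with Gm4832 (0.78), Higd1a (0.75) and Ubr1 (0.72). Nr3c1 came with Chd8 (0.72) and the costimulatory receptor Cd28 (0.69), after a row (0.72) whose name had been turned into a date in the table. These are the highest of many values and are given as a description.

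Around the members, 130 other genes of the pathway were listed, 110 of which were in the table: chaperones and transport partners of the receptor, its coregulators, steroid handling, further targets, genes it represses, the clock, relatives of the members and their pathway partners. Between environments 0 of 82 tested passed in CD4 and 0 of 79 in CD8 samples by limma (7 and 8 had an unadjusted p under 0.05, against 5.82% and 5.27% of all genes), with a median log2 fold change EE minus SE of 0.04 and 0.09, against 0.00118 and -0.00780 over all genes. Among pathway genes with a mean above 10, the smallest p in each direction in CD4 samples belonged to Relb, an NF-κB subunit, and Dbp, a clock output factor. Relb was at 15.7 ± 6.86 (SD, n = 6) in EE samples against 5.55 ± 1.85 (SD, n = 5) in SE samples (log2 fold change 1.31, limma adjusted p = 0.481) without overlap of the groups, as for 0.453% of genes, and Dbp at 9.22 ± 6.04 (SD, n = 6) and 12.2 ± 5.71 (SD, n = 5) (-0.55, limma adjusted p = 0.878). In CD8 samples, within the same limit on the mean, they belonged to the chemokine Ccl5, with 84.2 ± 55.9 (SD, n = 6) in EE against 33.2 ± 44.5 (SD, n = 4) in SE samples (1.96, limma adjusted p = 0.407), and to the corepressor Ncor1, with 36.3 ± 10.9 (SD, n = 6) and 42.8 ± 7.61 (SD, n = 4) (-0.27, limma adjusted p = 0.963). Neither Relb nor Ccl5 was shown to differ between the populations by the adjusted test. Ccl5 had a like value in CD4 samples, with 70.9 ± 59.9 (SD, n = 6) in EE against 23.6 ± 20.2 (SD, n = 5) in SE (1.80, limma adjusted p = 0.629), and Relb had -0.41 in CD8 samples (limma adjusted p = 0.963), with a limma adjusted p of 0.924 for the difference from CD4.

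Between populations 3 of 81 tested pathway genes were higher in CD4 and 2 lower, 6.17% against 4.4% of all genes, with a median log2 fold change CD4 minus CD8 of 0.03 against -0.00731. Smap2, a further target on the list, was lower in CD4 samples (log2 fold change -0.91, standard error 0.14, limma adjusted p = 1.89e-06), with 23.1 ± 2.44 (SD, n = 6) in CD4 EE against 42.8 ± 6.97 (SD, n = 6) in CD8 EE samples. The others, outside the rule for naming and named after their values were seen, were Il6ra (0.75, limma adjusted p = 0.00197), a chain of the interleukin 6 receptor and a target, Fkbp1a (0.56, 0.00334), a relative of Fkbp5, Rora (1.27, 0.0376), a nuclear receptor of the clock list, and Icam1 (-1.30, 0.0264), an adhesion molecule on the list of repressed genes. None of 11 chaperones and 0 of 11 coregulators tested passed by limma, and 3 of each had an unadjusted p under 0.05, where 14.8% of all genes did.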

How the data were processed

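The 8 genes, the pathway and marker lists and the tests were chosen with earlier results of these data known. RNA of 21 samples was sequenced on an Ion Proton instrument. The authors trimmed reads with cutadapt, aligned them with STAR 2.4.0a to mm10 (GRCm38), counted UMIs per gene with Drop-seq tools and divided by DESeq2 size factors, according to the labels and the paper's methods, which describe counting for another tissue. The deposited signal is thus a normalized molecule count. All values were whole multiples of 1 molecule in their sample (100% within 0.0001), and molecules were recovered in this way.

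Values were compared with limma 3.58.1 in R 4.3.3 (trend) on log2(value + 1), a scale that understates the fold change of scarce genes, for genes with a mean above 2, with Benjamini-Hochberg adjustment over all genes. For single genes, group labels were permuted exactly (two-sided), and correlations used up to 100000 permutations. Samples of 1 group came from separate mice. CD4 and CD8 samples of the same number and environment came from 1 mouse, according to the labels, although their deviations from the group means were hardly correlated (r = -0.0149 to 0.0354 in 9 mice). Alternatives were edgeR 4.0.16 and DESeq2 1.42.0 on the recovered molecules, a pseudocount of 0.5, no filter or a mean above 10, equal totals, all 21 samples in the fit, a replicate block, EE or SE samples alone and each sample left out. A fit of 9 paired mice and terms for B cell markers and for total molecules were added after seeing the data. The fits were also run on simulated counts, the outcome of which is not given here. The named genes are the 8 members, list genes past the threshold (at most 6 per comparison by p), and, between environments, the pathway gene with a mean above 10 and the smallest p in each direction. By that rule the marker genes Cd8b1, Cd8a, Cd4, Cd5 and Cd79a also passed between the populations, with log2 fold changes CD4 minus CD8 of -5.57, -5.97, 5.42, 1.20 and 3.08. Motif windows are from RefSeq on GRCm38.p6 and gene positions from GENCODE M21 on GRCm38. A label headed as a number of cells was not used, because its values run on from sample to sample like serial numbers. The value of CD8 SE mouse 6 lies outside that run, for a reason not given in the sources used here.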

Additional observations from a re-analysis of the deposited data

Results flagged for a closer look

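In 4 of the 31 sets of values tested, each 1 gene in 1 group, 1 sample lay apart from the others by Dixon's test, where chance gives about 1 in 20. For Klf9 this was bound to happen, since any molecules in a single sample stand apart when the others hold 0, so it is not counted as a departure from chance. All 4 involved SE mouse 1. Its CD8 sample was the lowest of the 4 CD8 SE samples for Tsc22d3, at 32.5 against 61.8 to 64.4. Its CD4 sample was the lowest of the 5 CD4 SE samples for Ddit4, at 9.27 against 26.5 to 30.4, and the highest for Sgk1, at 10.3 against 3.66 to 4.50. That CD4 sample also held 3 molecules of Klf9, a normalized count of 3.09, where the other 4 held 0. The CD4 sample had a summed B cell marker count of 3.09 where the other CD4 SE samples had 23.7 to 58.5, while in the CD8 sample, at 6.00, the sum was within the range of the other CD8 SE samples, 0.931 to 6.73.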

How the results depend on the processing

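Of 691 single-gene fold changes recomputed under the alternatives, 631 changed neither sign nor call. No member passed between EE and SE, or in the test of whether the effect differed between populations, under any alternative. Counts over all genes were unsteady. In CD4 EE against SE, 1 gene passed, and 0 did when the replicate block of animal numbers or a term for total molecules was added, when all 21 samples were fitted together, when only genes with a mean above 10 were kept or when the pseudocount was 0.5, 3 with no filter, 2 with edgeR, and 0 to 3 with 1 sample left out. In CD8 EE against SE, 0 passed, and 3 did with no filter, 2 with the replicate block, and 0 to 3 with 1 sample left out. Animal numbers in EE and SE name different mice, and samples with the same number did not deviate together (r at most 0.0295), so that block pairs only numbers. Between the populations 349 genes passed, and 216 did with a mean above 10 (99 higher and 117 lower in CD4, where fewer genes were tested), 227 in EE and 105 in SE samples alone (fewer samples), 129 with the B cell term, 198 with total molecules as a term, and 300 to 362 with 1 sample left out. With mouse as a replicate block, 358 passed and no member's call changed. Of the 56 pair correlations, 1 passed with equal totals and up to 2 with 1 sample left out (2 without CD4 EE mouse 1).

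The following values changed sign, all in differences that were not called, except that of Ddit4 between the populations, and the cause was not tested. With edgeR and DESeq2, Fkbp5 EE minus SE in CD4 samples was -0.063 and -0.056, and Ddit4 EE minus SE in CD8 samples was -0.015 and -0.020, both in the direction of the mean counts. For CD4 minus CD8, SE samples alone gave -0.013 for Nr3c1, -0.21 for Fkbp5 and 0.11 for Txnip, the B cell term gave -0.17 for Fkbp5, -0.072 for Ddit4 and 0.19 for Sgk1, and a pseudocount of 0.5 gave -0.00053 for Fkbp5. With total molecules as a term, Nr3c1 EE minus SE in CD4 samples was 0.027 and Txnip CD4 minus CD8 was 0.053. Ddit4 CD4 minus CD8 kept its sign with that term, at 0.89, with a limma adjusted p of 0.0667. Without CD8 SE mouse 6, whose label number lies outside the run of the others, it was 0.85 (limma adjusted p = 0.00535), and r between the populations, without that mouse, was 0.80, against 0.51 without SE mouse 1.

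With 1 sample left out, EE minus SE in CD4 samples ranged from -0.026 to 0.23 for Tsc22d3, from -0.37 to 0.47 for Fkbp5 and from -0.039 to 0.18 for Per1. In CD8 samples it ranged from -0.23 to 0.23 for Per1, from -0.13 to 0.36 for Ddit4 and from -0.078 to 0.00173 for Txnip. CD4 minus CD8 ranged from -0.21 to 0.30 for Fkbp5, and the difference between the effects of the environment from -0.059 to 0.95 for Fkbp5 and from -0.17 to 0.29 for Per1. With 1 mouse left out, r between the populations ranged from -0.35 to 0.63 for Tsc22d3, from -0.38 to 0.45 for Fkbp5, from -0.40 to 0.040 for Per1, from -0.18 to 0.14 for Klf9, from -0.75 to 0.048 for Sgk1 and from -0.57 to 0.33 for Txnip. Differences that kept their sign when 1 sample was left out ranged, for EE minus SE in CD4 samples, from -0.27 to -0.027 for Nr3c1, from -0.54 to -0.10 for Ddit4, from 0.32 to 0.71 for Sgk1 and from -0.45 to -0.25 for Txnip, and in CD8 samples from -0.48 to -0.20 for Nr3c1, from 0.15 to 0.50 for Tsc22d3, from -0.79 to -0.0052 for Fkbp5 and from -0.30 to -0.096 for Sgk1. For CD4 minus CD8 they ranged from 0.040 to 0.18 for Nr3c1, from -0.50 to -0.32 for Tsc22d3 and from 0.40 to 0.60 for Per1. Those of Ddit4, Sgk1 and Txnip ranged from 0.61 to 0.86, from -0.66 to -0.43 and from -0.10 to -0.0011. For the difference between the effects they ranged from 0.076 to 0.36 for Nr3c1, from -0.40 to -0.051 for Tsc22d3, from -0.62 to -0.11 for Ddit4, from 0.51 to 0.90 for Sgk1 and from -0.41 to -0.21 for Txnip. The r between the populations ranged from -0.66 to -0.19 for Nr3c1 and from 0.51 to 0.87 for Ddit4. Under the other alternatives, EE minus SE in CD4 samples ranged from -0.37 to -0.028 for Ddit4, 0.14 to 0.60 for Sgk1 and -0.063 to 0.63 for Fkbp5. In CD8 samples it ranged from -0.57 to -0.35 for Nr3c1, -0.52 to -0.23 for Fkbp5 and -0.35 to -0.14 for Sgk1. CD4 minus CD8 ranged there from -0.013 to 0.36 for Nr3c1, -0.21 to 0.57 for Fkbp5, -0.93 to 0.19 for Sgk1 and -0.20 to 0.11 for Txnip. At 0 to 10 molecules per sample, depth limits what can be seen in Fkbp5 and Klf9.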
